A study of Mus musculus with 18 samples.

Results

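A set of 9 genes of neural and SOX biology were followed across 6 kinds of mouse pluripotent stem cell: *Sox1*, *Sox4*, *Sox11*, *Sox12*, *Sox21*, *Pax6*, *Zic1*, *Nes* and *Hes5*. They are a list of names taken from the 35773 genes in the count tables, set with earlier results of these data known. Of the 9 genes, 8 had at least 10 counts in at least 3 of the 18 samples and were tested together with all 16901 genes that passed this filter. *Hes5* did not pass and is given by its counts. *Zic1* passed through the ESC-ASC samples alone, and *Pax6* through these and 2 EpiLC samples, so a difference of these genes from the other groups was built into the filter.

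The study compared the transcriptomes of pluripotent states by polyA RNA-seq, with 3 biological replicates in each of 6 groups. ESCs were naive embryonic stem cells in 2i/LIF, EpiLCs were epiblast-like cells, EpiSCs were epiblast stem cells, and AFSCs were primed stem cells kept in Activin A and FGF2. ASCs, the advanced pluripotent stem cells of the study, were obtained from AFSCs in a medium with Activin A, BMP4, the GSK3 inhibitor CHIR99021 and LIF (ABCL). ESC-ASCs were cells converted to the same ABCL culture from ESCs. The labels give every group the genotype wild type and the strain 129S2/SvPasCrl, without an age, whereas the methods describe lines from crosses of 129/sv females with reporter males of mixed background. All groups are cell lines in culture, so line, origin and medium cannot be told apart in a comparison of groups.

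SOX proteins are transcription factors with an HMG box, grouped by similarity. SoxB1 proteins, such as SOX1, SOX2 and SOX3, keep neural progenitors undifferentiated, the SoxB2 protein SOX21 counteracts them, and the SoxC proteins SOX4, SOX11 and SOX12 act in the survival and differentiation of neural precursors and other embryonic cells. PAX6 and ZIC1 pattern the neural plate and its derivatives, nestin (*Nes*) is an intermediate filament of neural progenitors that other dividing cells also make, and HES5 is a repressor switched on by Notch signalling that holds back neurogenesis. Neural fate is known to appear when pluripotent cells leave self-renewal without BMP signals, and BMP induces Id proteins, which block neural bHLH factors.

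Total counts were 4961934 to 9906473 in 15 samples and 17813619 to 18071600 in ESC-ASCs, so a gene with few transcripts was counted more often there. Replicate 1 stood apart from replicates 2 and 3 in ESCs, ASCs, EpiLCs and AFSCs, with a chi-square per degree of freedom between replicates of up to 100 over all pairs and of 1.65 at the lowest, and no pair of samples was identical. The labels held against marker genes: naive markers summed to 2938 to 5256 normalized read counts per kb in ESCs, ASCs and ESC-ASCs and to at most 192 in EpiLCs, AFSCs and EpiSCs, and primed markers to at most 645 and at least 2855 in the same groups. *Pou5f1*, the pluripotency factor OCT4, lay between 4853 ± 403 in ESC-ASCs and 8089 ± 371 in EpiSCs (normalized read counts per kb, mean ± SD, n = 3 here and below). The RNA came from bulk cultures, in which more cells that express a gene and more RNA per cell cannot be told apart.

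The genes lie on GRCm38 as follows. *Sox1* is on chromosome 8 (12395295 to 12400126, plus strand), *Sox4* on chromosome 13 (28948919 to 28953713, minus), *Sox11* on chromosome 12 (27334264 to 27342574, minus), *Sox12* on chromosome 2 (152393611 to 152398063, minus) and *Sox21* on chromosome 14 (118233232 to 118237030, minus), each with 1 exon. *Pax6* is on chromosome 2 (105668900 to 105697364, plus), *Zic1* on chromosome 9 (91358058 to 91365810, minus), *Nes* on chromosome 3 (87971078 to 87980451, plus) and *Hes5* on chromosome 4 (154960923 to 154962371, plus). Fragments were counted without regard to strand and for every gene they touched, so genes that overlap share counts. *Sox4* shares 54.6% of its exonic length with *Gm26735* on the opposite strand, *Hes5* shares 31.8% with *Gm20421*, and *Sox21* shares 18.8% with *Gm4675*. *Gm26735* was low and high in the same groups as *Sox4*, with 11 to 14 counts per sample in ESCs and 315 to 326 in EpiLCs.

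The 250 bases before the annotated start were read for all 9 genes from RefSeq (GRCm38.p6), and 5 of them are shown because 3 are the promoters of the SoxC genes, which were all higher in EpiLCs, AFSCs and EpiSCs than in ESCs, 1 is that of *Sox21*, which was lower in these groups, and 1 is that of the Notch target *Hes5*. Capitals mark matches, on either strand, to CCAAT (the CCAAT box), ATGCAAAT (the octamer read by POU factors such as OCT4), GTGGGAA (the site of the Notch effector RBPJ) and AACAATG (a SOX site). No matches overlapped one another. The windows are 13:28953700-28953949 for *Sox4*, 12:27342719-27342968 for *Sox11*, 2:152398047-152398296 for *Sox12*, 14:118237031-118237280 for *Sox21* (all minus strand) and 4:154960673-154960922 for *Hes5* (plus strand), written 5′ to 3′ along the gene.
Sox4: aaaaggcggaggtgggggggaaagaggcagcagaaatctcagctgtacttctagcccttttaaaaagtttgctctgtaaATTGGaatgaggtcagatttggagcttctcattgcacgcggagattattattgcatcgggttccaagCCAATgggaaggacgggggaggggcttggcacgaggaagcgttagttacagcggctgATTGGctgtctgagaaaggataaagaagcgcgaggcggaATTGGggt
Sox11: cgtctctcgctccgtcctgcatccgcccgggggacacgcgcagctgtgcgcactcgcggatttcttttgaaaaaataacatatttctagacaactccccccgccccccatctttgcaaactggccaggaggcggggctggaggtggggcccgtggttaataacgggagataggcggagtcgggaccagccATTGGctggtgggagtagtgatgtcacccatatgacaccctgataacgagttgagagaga
Sox12: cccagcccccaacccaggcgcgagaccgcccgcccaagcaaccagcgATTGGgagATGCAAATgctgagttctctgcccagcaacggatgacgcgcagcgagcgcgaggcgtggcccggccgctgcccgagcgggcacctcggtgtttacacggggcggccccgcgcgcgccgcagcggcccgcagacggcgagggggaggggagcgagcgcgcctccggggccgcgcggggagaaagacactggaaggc
Sox21: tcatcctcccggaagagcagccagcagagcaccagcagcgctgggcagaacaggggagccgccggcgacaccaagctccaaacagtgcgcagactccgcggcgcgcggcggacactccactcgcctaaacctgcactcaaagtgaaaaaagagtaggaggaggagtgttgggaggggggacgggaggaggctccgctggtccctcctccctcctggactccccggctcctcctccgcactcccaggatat
Hes5: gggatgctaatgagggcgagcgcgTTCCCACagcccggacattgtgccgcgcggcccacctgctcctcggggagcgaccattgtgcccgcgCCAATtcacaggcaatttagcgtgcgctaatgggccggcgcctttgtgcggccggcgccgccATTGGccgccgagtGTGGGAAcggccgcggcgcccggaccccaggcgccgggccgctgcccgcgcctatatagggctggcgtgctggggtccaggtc
The *Sox4* window held 4 matches to CCAAT, those of *Sox11* and *Sox12* held 1 each, and that of *Sox21* held none of the motifs. A match to CCAAT was present in 33.8% of 32851 mouse windows of the same length. *Sox12* also held the letters of the octamer, which 1.60% of all windows held, and *Hes5* held 2 matches to the RBPJ motif, of which 5.42% of all windows held at least 1. No window of the 9 genes held the SOX motif, which was in 3.29% of all windows. These matches are letters in a window and say nothing of binding in these cells.

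*Sox4* was lowest in ESCs, intermediate in both ABCL cultures and highest in the 3 cultures of primed or epiblast-like cells. Its normalized read counts per kb were 4.93, 7.28 and 7.21 in the ESC samples, 30.4, 23.0 and 31.1 in ASCs and 26.4, 23.9 and 29.4 in ESC-ASCs. They were 94.5, 103 and 122 in EpiLCs, 85.1, 60.6 and 81.2 in AFSCs and 81.6, 107 and 90.6 in EpiSCs. The 3 tiers did not overlap. Every group was above ESCs by edgeR's quasi-likelihood test, by a log2 fold change of 2.05 (SE 0.216, adjusted p = 3.65e-07) in ASCs, 1.98 (SE 0.211, adjusted p = 1.96e-07) in ESC-ASCs and 4.0 (SE 0.210, adjusted p = 8.48e-12) in EpiLCs. Between the middle and the upper tier, AFSCs exceeded ASCs by 1.45 on the log2 scale. Within tiers the neighbours EpiLC and EpiSC (adjusted p = 0.305), EpiSC and AFSC (adjusted p = 0.186), and ASC and ESC-ASC (adjusted p = 0.735) were not separated. The ends of the upper tier were, with AFSCs below EpiLCs by 0.50 (SE 0.165, adjusted p = 0.0187), a call lost without AFSC replicate 2 (0.101) or EpiLC replicate 3 (0.0992) and when the 2 groups were fitted alone (0.0613).

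**Figure D1:**
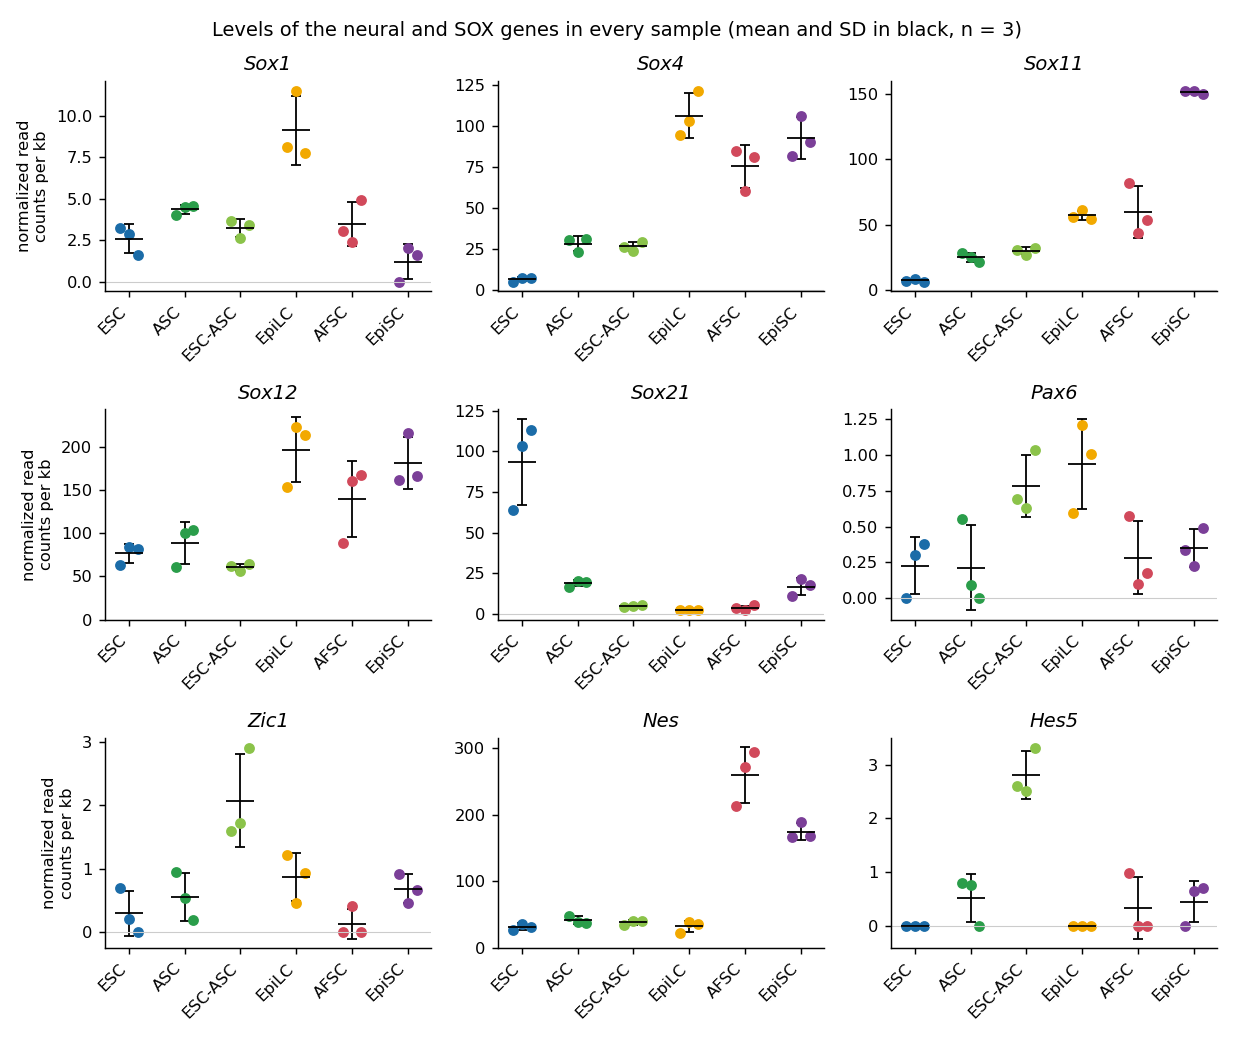
Normalized read counts per kb (vertical axes, linear, a separate scale for each gene) of the 9 genes in every sample of the 6 groups, with points for samples and black marks for the mean and SD of 3 samples. *Sox4* and *Sox11* rise from ESCs through both ABCL cultures to the primed cells, *Sox21* is highest in ESCs, *Nes* is high in AFSCs and EpiSCs, and *Pax6*, *Zic1* and *Hes5* stay below 3.4 in every sample.

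*Sox11* had the same low end but a different top. ESC samples held 7.34, 8.54 and 6.58 normalized read counts per kb, ASCs 28.4, 25.0 and 21.4, and ESC-ASCs 30.9, 27.0 and 32.1. EpiLCs held 55.5, 61.2 and 54.3, AFSCs 82.1, 43.7 and 53.8, and EpiSCs 152, 152 and 150. EpiSCs stood above every other sample, by 1.32 on the log2 scale over AFSCs (SE 0.173, adjusted p = 5.42e-06), whereas AFSCs and EpiLCs overlapped (adjusted p = 0.784). EpiLCs in turn exceeded ESC-ASCs by 0.95 (SE 0.173, adjusted p = 0.000103), a pair in which 64.1% of all genes differed. ASCs lay above ESCs by 1.71 (SE 0.206, adjusted p = 1.99e-06), and ESC-ASCs did not separate from ASCs (adjusted p = 0.206).

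*Sox12*, the SoxC gene with the weakest known activity of the 3, was well expressed in all 6 groups and, of the 7 genes with more than 3 counts in every group, varied least, with a ratio of 3.25 between the highest and lowest group means. In normalized read counts per kb it measured 63.7, 83.9 and 82.2 in ESC samples, 60.6, 100.3 and 104 in ASCs, and 61.9, 55.8 and 63.9 in ESC-ASCs. Values were 154, 223 and 213 in EpiLCs, 88.6, 161 and 168 in AFSCs, and 161, 216 and 166 in EpiSCs. EpiLCs, EpiSCs and AFSCs were not separated from each other as neighbours (adjusted p = 0.654 and 0.222), and neither were ASCs, ESCs and ESC-ASCs (adjusted p = 0.559 and 0.190). The step between these sets, from AFSCs down to ASCs, was -0.68 on the log2 scale (SE 0.232, adjusted p = 0.0149), although the samples overlapped, since AFSC replicate 1 lay below ASC replicates 2 and 3. That call was lost without ASC replicate 1 (adjusted p = 0.0893), AFSC replicate 2 (0.0629) or AFSC replicate 3 (0.0736), and when the 2 groups were fitted alone (0.0732).

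Over all 18 samples the log levels of *Sox4* and *Sox11* had a Pearson r of 0.92, and those of *Sox4* and *Sox12* of 0.75, while *Sox4* and *Sox21* had an r of -0.75. These correlations describe 18 samples that share 6 group levels and are not independent.

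*Sox21* was highest in ESCs, where *Sox4* and *Sox11* were lowest. ESC samples held 63.7, 104 and 113 normalized read counts per kb, against 16.8, 20.5 and 19.6 in ASCs and 4.52, 5.27 and 5.69 in ESC-ASCs. EpiLCs held 2.74, 2.56 and 2.54, AFSCs 3.54, 2.74 and 5.45, and EpiSCs 11.1, 21.6 and 17.8. ESCs therefore lay above all other samples, and the fall was deepest in EpiLCs, by 5.16 on the log2 scale (SE 0.307, adjusted p = 4.98e-11). ASCs and EpiSCs, which differ in their naive and primed markers, did not separate (adjusted p = 0.643), while EpiSCs exceeded ESC-ASCs by 1.72 (SE 0.266, adjusted p = 1.11e-05), in a pair in which 72.2% of all genes differed. The lowest groups, ESC-ASC, AFSC and EpiLC, were not separated as neighbours (adjusted p = 0.339 and 0.229), although ESC-ASCs exceeded EpiLCs by 0.96 (SE 0.346, adjusted p = 0.0213). That call was lost without EpiLC replicate 2 (adjusted p = 0.0592), EpiLC replicate 3 (0.0551) or ESC-ASC replicate 3 (0.0504). In the EpiLC samples *Sox21* rested on 9 to 11 counts each, and *Gm4675*, which overlaps it, fell in parallel from 21 to 103 counts per sample in ESCs to 0 to 3 in EpiLCs.

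*Sox1*, an early marker of the neural plate, stayed low everywhere and was highest in EpiLCs. EpiLC samples held 8.13, 11.5 and 7.75 normalized read counts per kb on 34 to 63 counts, above every other sample. The other groups held 1.62 to 3.26 in ESCs, 4.02 to 4.54 in ASCs, 2.63 to 3.66 in ESC-ASCs, 2.40 to 4.93 in AFSCs, and 0, 2.01 and 1.58 in EpiSCs. EpiLCs exceeded the next group, ASCs, by 1.10 on the log2 scale (SE 0.365, adjusted p = 0.0142), in a pair in which 59.8% of all genes differed, and this call was lost without EpiLC replicate 2 (adjusted p = 0.0761). The remaining 5 groups were not separated as neighbours, with adjusted p from 0.145 to 0.776, but farther apart in the order ASCs exceeded EpiSCs by 1.70 (SE 0.476, adjusted p = 0.00405). At its highest, *Sox1* was still 11.7 times lower per kb than *Sox4* in the same EpiLCs.

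*Nes* divided the cells along another line, with high levels in AFSCs and EpiSCs and with EpiLC samples overlapping those of ESCs. Its normalized read counts per kb were 212, 270.5 and 294 in AFSCs and 166, 190 and 168 in EpiSCs. They were 27.0, 36.8 and 32.0 in ESCs, 48.6, 39.3 and 37.4 in ASCs, 34.5, 40.3 and 41.0 in ESC-ASCs and 23.1, 39.0 and 35.4 in EpiLCs. All 6 samples of AFSCs and EpiSCs lay above the other 12. AFSCs exceeded ESCs by 3.01 on the log2 scale (SE 0.192, adjusted p = 9.06e-11) and EpiLCs by 2.99 (SE 0.190, adjusted p = 3.14e-10), in a pair in which 47.1% of all genes differed. EpiSCs exceeded ASCs by 2.07 (SE 0.184, adjusted p = 1.04e-08), where 66.5% of all genes differed, and lay below AFSCs by 0.58 (SE 0.173, adjusted p = 0.0113), a call that was lost without AFSC replicate 3 (adjusted p = 0.0558). Neighbours among the 4 lower groups were not separated (adjusted p from 0.292 to 0.923).

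Because nestin is also made outside the neural lineage, markers of other cells were read beside it. Primitive streak and mesoderm markers summed to 209 to 346 normalized read counts per kb in AFSCs and 940.1 to 1013 in EpiSCs, against at most 124 in any other sample, and endoderm markers to 93.4 to 116 and 368 to 387, against at most 32.2. All 8 endoderm markers in AFSCs and 7 of 8 in EpiSCs had more than 3 counts, and *Mesp1*, a marker of early mesoderm, had none in AFSCs. Most of the endoderm sum in AFSCs was 1 gene, *Foxa2* at 90.5 ± 8.48, and the other endoderm markers had means there of at most 6.50. Fibroblast markers summed to 96.0 to 136 in AFSCs and 32.4 to 37.0 in EpiSCs, against 53.2 to 164 elsewhere, with *Dcn* and *Lum* at 0 counts in EpiSCs. The largest part in AFSCs was *Twist1* at 65.3 ± 15.3, which was also on the neural crest list. The sum of 10 neuron markers was 155 to 210 in AFSCs, the lowest of the 6 groups, 407 to 489 in EpiSCs, and highest in ESCs at 632 to 668 and ESC-ASCs at 616 to 706. Most of it was 1 gene there, *Tubb3* at 580 ± 22.0 in ESCs and *Stmn2* at 568 ± 41.7 in ESC-ASCs, while *Dcx* was at 0 counts in both. Neural crest markers summed to 168 to 202 in AFSCs and 166 to 203 in EpiSCs. The sums were 231 to 287 in ESCs, 195 to 257 in ASCs and 248 to 265 in EpiLCs, and lowest in ESC-ASCs at 47.1 to 56.7. The largest part in AFSCs and EpiSCs was *Foxd3*, at 98.1 ± 9.20 and 148 ± 16.4. Its means were higher in ESCs (170), ASCs (184) and EpiLCs (210). The part of such cells in the *Nes* level was not tested.

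The 3 remaining genes were close to the limit of detection. *Pax6* had 0 to 6 counts per sample in ESCs, ASCs, AFSCs and EpiSCs, 6, 16 and 11 in EpiLCs, and 16, 15 and 24 in ESC-ASCs. Per kb this came to 0.94 ± 0.31 normalized read counts in EpiLCs and 0.78 ± 0.22 in ESC-ASCs, against 0.21 to 0.35 as group means elsewhere. No pair of neighbours in the order was separated, with adjusted p from 0.0940 to 0.980. The highest level of this factor of the forebrain and eye in EpiLCs was 114 times lower per kb than that of *Sox4* in the same cells.

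*Zic1*, a zinc finger gene of the dorsal neural tube, had 18, 20 and 33 counts in ESC-ASCs and 0 to 6 in every other sample. Relative to sequencing depth, the 71 counts of ESC-ASCs were 8.91 times the 3 of ESCs (95% exact interval 2.93 to 44.2) and 3.67 times the 9 of ASCs (1.83 to 8.36). The interval covers counting error only. Against EpiLCs, the next group in the order with 14 counts, the ratio was 2.47 (1.38 to 4.75), and edgeR's test gave an adjusted p of 0.0384. That call was lost without EpiLC replicate 2 (0.174) or replicate 3 (0.0718), and with the DESeq2 Wald test (adjusted p = 0.0879). The 4 lower neighbours were not separated (adjusted p from 0.331 to 0.794).

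*Hes5* had 7, 7 and 9 counts in ESC-ASCs and at most 1 in each of the other 15 samples. The summed 23 counts of ESC-ASCs were at least 2.89 times the level that 0 counts allow in ESCs and at least 3.74 times that in EpiLCs, with a floor of 3 counts over the 3 libraries of a group. Against the 2 counts of ASCs the ratio was 5.36 (95% exact interval 1.32 to 46.9). A 2-sided exact permutation test gave p = 0.10 against each group, the smallest that 3 against 3 samples allow. The overlapping *Gm20421* had 4, 5 and 7 counts in ESC-ASCs and at most 1 elsewhere, and which gene these fragments came from could not be told apart.

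Each culture was then compared with ESCs, which serve as the shared control of 5 comparisons. In EpiLCs, 5 of 8 tested genes were higher (*Sox4*, *Sox11*, *Sox1*, *Pax6*, *Sox12*), where 28.7% of all genes were, and 1 was lower (*Sox21*), where 26.6% were. The call of *Pax6* (log2 fold change 1.83, SE 0.708, adjusted p = 0.0345) was lost without EpiLC replicate 2 (adjusted p = 0.111) or 3 (0.0664) or ESC replicate 1 (0.0878) or 2 (0.0719). In AFSCs and in EpiSCs, 4 of 8 were higher (*Sox4*, *Sox11*, *Sox12*, *Nes*), beside 29.7% and 29.2% of all genes, and *Sox21* alone was lower, beside 30.8% and 32.0%. Side by side, AFSCs and EpiSCs differed from ESCs by 0.86 and 1.23 on the log2 scale in *Sox12*, by 3.50 and 3.79 in *Sox4* and by -4.56 and -2.47 in *Sox21*.

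In ASCs, 2 of 8 genes were higher than in ESCs (*Sox4* and *Sox11*), beside 26.4% of all genes, and 1 was lower (*Sox21*, by 2.33 on the log2 scale, SE 0.242, adjusted p = 3.02e-07), beside 23.9%. *Nes*, at 0.36 (SE 0.188, adjusted p = 0.124), and *Sox1*, at 0.77 (SE 0.452, adjusted p = 0.162), had ASC samples all above the ESC samples without passing the test. In ESC-ASCs, 3 of 8 were higher (*Sox4*, *Sox11*, *Zic1*), beside 30.6%, and *Sox21* was lower by 4.20 (SE 0.262, adjusted p = 1.86e-10), beside 29.6%. ESC-ASCs were deeper than the other libraries, and *Zic1* was tested only because of them.

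**Figure D2:**
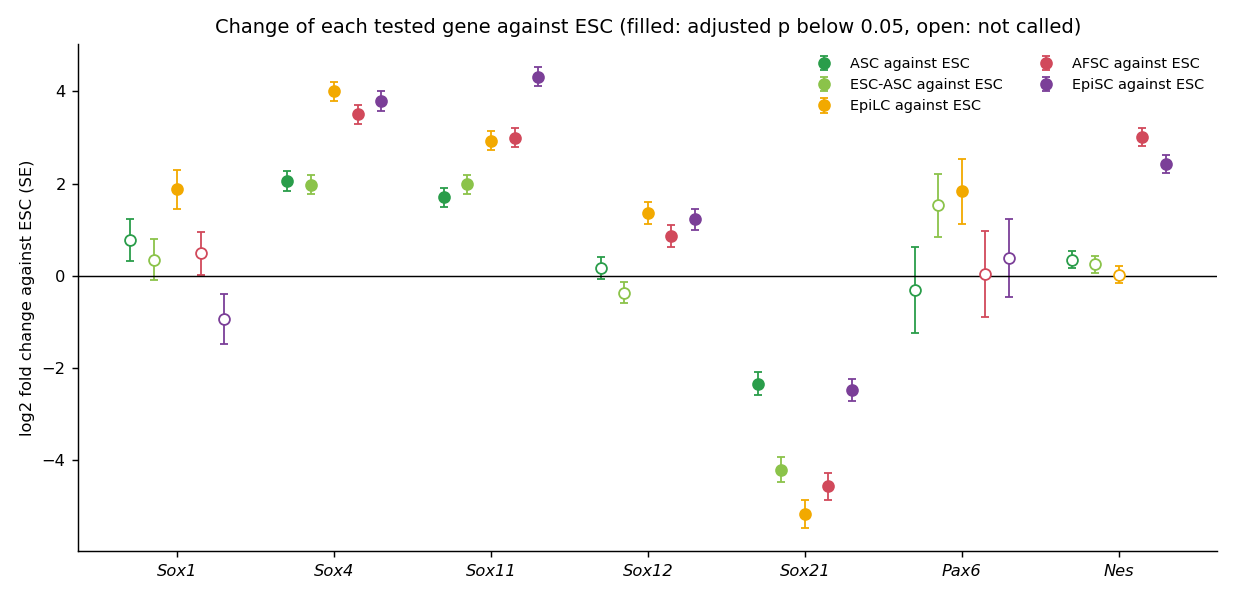
Log2 fold change against ESCs with its SE (vertical axis) of 7 genes in the 5 other groups, filled where the adjusted p was below 0.05. *Sox4* and *Sox11* were called higher in all 5 groups and *Sox21* lower in all 5, *Nes* was called only in AFSCs and EpiSCs, and *Zic1* and *Hes5* are left out because several groups had too few counts for a fold.

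The passage into ABCL medium was then followed from both starting points. From AFSCs to ASCs, 4 of 8 genes fell, *Nes* by 2.66 (SE 0.187, adjusted p = 5.58e-10), *Sox4* by 1.45 (SE 0.175, adjusted p = 8.46e-07), *Sox11* by 1.29 (SE 0.179, adjusted p = 5.06e-06) and *Sox12* by 0.68 on the log2 scale, beside 31.2% of all genes. *Sox21* rose by 2.22 (SE 0.308, adjusted p = 4.74e-06), beside 32.8% of all genes. From ESCs to ESC-ASCs, *Sox4* and *Sox11* rose by 1.98 each and *Sox21* fell by 4.20, while *Nes* differed by 0.25 (SE 0.185, adjusted p = 0.256). The changes along the 2 routes were compared directly, in a contrast whose 4 groups share no sample. They differed in *Sox21* by 6.42 (SE 0.397, adjusted p = 8.31e-11), in *Sox4* by -3.43 (SE 0.274, adjusted p = 3.22e-09), in *Sox11* by -3.27 (SE 0.270, adjusted p = 5.03e-09) and in *Nes* by -2.90 (SE 0.260, adjusted p = 1.53e-08). Such a difference was called for 58.5% of all genes, and 4 of 8 here. In *Sox4*, *Sox11* and *Nes*, where ASCs and ESC-ASCs were not separated, it mostly restates the difference between the starting cells, AFSCs and ESCs. In *Sox21* it holds both the difference between the starting cells, -4.56 in AFSCs against ESCs, and that between the end points, -1.86 in ESC-ASCs against ASCs.

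**Figure D3:**
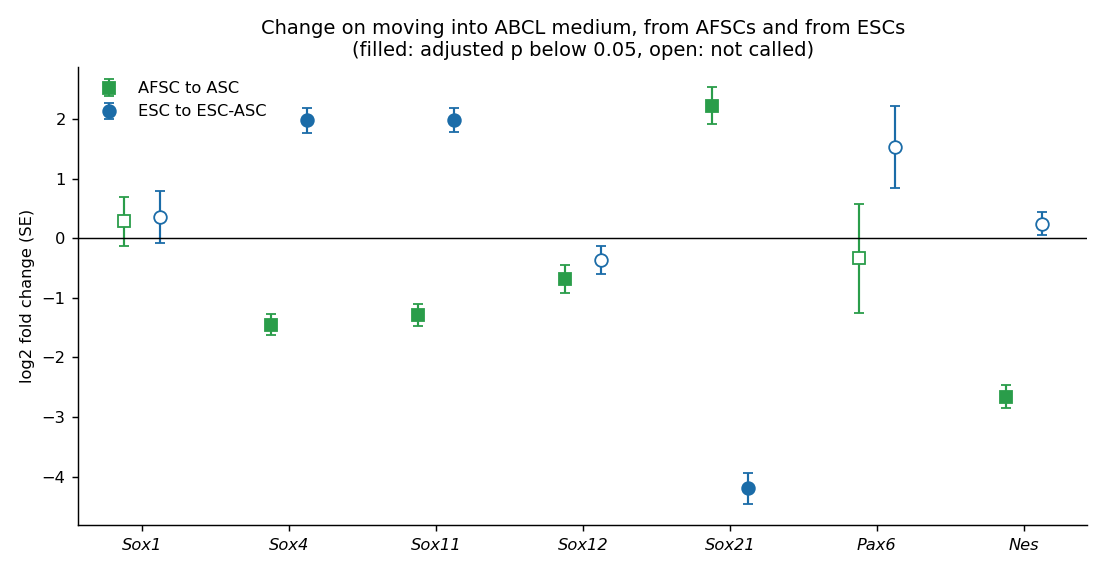
Log2 fold change with its SE (vertical axis) from AFSCs to ASCs (green squares) and from ESCs to ESC-ASCs (blue circles) for 7 genes, filled where the adjusted p was below 0.05. *Sox4* and *Sox11* moved down on the first route and up on the second, *Sox21* moved up by 2.22 and down by 4.20, and *Nes* passed the test on the first route only, with a difference between the routes of -2.90.

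At the end points of the 2 routes, the samples overlapped in the SoxC genes and *Nes* and did not in *Sox21*, *Sox1*, *Pax6* and *Zic1*. *Sox1* differed by -0.42 on the log2 scale in ESC-ASCs against ASCs without passing edgeR's test (SE 0.378, adjusted p = 0.370). Between ESC-ASCs and ASCs, *Sox4* differed by -0.08 (SE 0.175), *Sox11* by 0.27 (SE 0.177, adjusted p = 0.206) and *Nes* by -0.11 (SE 0.180, adjusted p = 0.641) on the log2 scale, none of which passed the test. *Sox21* was the single gene of the 8 that was called lower in ESC-ASCs, by 1.86 (SE 0.265, adjusted p = 1.35e-05), beside 27.7% of all genes. *Pax6* and *Zic1* were called higher, beside 23.0% of all genes, but both reached the filter through ESC-ASC samples, so their number supports nothing. *Sox12* differed by -0.54 without passing the test (SE 0.231, adjusted p = 0.0599), and passed it when the 2 groups were fitted alone (0.0349), with a replicate block (0.0165) and without ASC replicate 1 (0.0130), AFSC replicate 1 (0.0228), EpiLC replicate 1 (0.0476) or replicate 1 of every group (2.68e-05). *Pax6* (1.83, SE 0.669, adjusted p = 0.0290) lost its call without ASC replicate 2 (adjusted p = 0.117), ASC replicate 3 (0.121) or ESC-ASC replicate 3 (0.0900), rose to 3.84 without ASC replicate 1, and was not called once ESC-ASCs were thinned to the depth of the others (0.0846). *Zic1* (adjusted p = 0.0101) lost its call without ASC replicate 3 (adjusted p = 0.0562), and it no longer passed the filter without any 1 ESC-ASC replicate or with thinned counts.

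Among the primed cells, EpiSCs were higher than AFSCs in *Sox21* (log2 fold change 2.08, SE 0.310, adjusted p = 2.44e-05) and *Sox11*, 2 of 8 genes beside 17.8% of all genes. They were lower in *Nes* and *Sox1*, 2 of 8 beside 21.6%. The call of *Sox1* (-1.42, SE 0.497, adjusted p = 0.0290) rested on EpiSC replicate 1, which had 0 counts, and on AFSC replicate 3: it was lost without either (adjusted p = 0.0741 and 0.168), without replicate 1 of every group (0.0649) and when the 2 groups were fitted alone (0.118). Compared with EpiLCs, EpiSCs were higher in *Sox21* (2.68, SE 0.324, adjusted p = 1.28e-06), *Nes* (2.40, SE 0.187, adjusted p = 3.31e-09) and *Sox11* (1.39, SE 0.172, adjusted p = 1.78e-06), 3 of 8 beside 21.5% of all genes. *Sox1* was lower in them by 2.81 (SE 0.435, adjusted p = 2.57e-05), beside 27.0%.

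Other SOX genes were read from a list of 14, of which 9 passed the filter. Against ESCs, 3 rose and 3 fell in EpiLCs, beside 28.7% and 26.6% of all genes, 3 and 3 in AFSCs (29.7% and 30.8%), 4 and 3 in EpiSCs (29.2% and 32.0%), 5 and 1 in ASCs (26.4% and 23.9%), and 2 and 2 in ESC-ASCs (30.6% and 29.6%). The largest change with counts in both groups was in the SoxB1 gene *Sox3*, which rose by 7.28 (SE 0.232, adjusted p = 7.65e-15) in EpiSCs and 5.74 (SE 0.229, adjusted p = 2.43e-13) in EpiLCs. Its level went from 6.66 ± 1.24 normalized read counts per kb in ESCs to 358 ± 12.2 in EpiLCs and 1049 ± 65.0 in EpiSCs. *Sox2*, the SoxB1 gene of pluripotency, went the other way, from 2329 ± 316 in ESCs to 76.1 ± 9.12 in EpiSCs, where it fell by 4.95 (SE 0.216, adjusted p = 3.68e-13). *Sox10*, a gene of the neural crest, had no counts in ESCs and 18 ± 2.69 normalized read counts per kb in EpiSCs, and *Sox17*, an endoderm gene, rose from 0.40 ± 0.51 to 34.6 ± 2.76. From AFSCs to ASCs 6 of the 9 rose, where 32.8% of all genes did, with a median log2 fold change of 1.51 beside 0.02 over all genes, and the largest changes were in *Sox8*, from 0.48 ± 0.57 to 2.62 ± 0.82 normalized read counts per kb, *Sox18*, from 1.46 ± 0.19 to 6.77 ± 3.03, and *Sox6*, from 0.13 ± 0.07 to 0.61 ± 0.47. *Sox8*, *Sox18* and *Sox6* were low in both groups, so their changes rest on few counts.

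Of 42 other genes of the neural plate and of neural progenitors, 30 passed the filter. Against ESCs, 18 of the 30 rose and 9 fell in EpiSCs, beside 29.2% and 32.0% of all genes, with a median log2 fold change of 1.72 beside -0.04 over all genes. The leading genes were *Fabp7*, a lipid-binding protein of radial glia, which had no counts in ESCs and 289 ± 56.4 normalized read counts per kb in EpiSCs, *Pax2*, a gene of the midbrain and hindbrain border, with 0.14 ± 0.12 and 25.3 ± 5.27, and *Irx3*, which rose by 6.41 (SE 0.281, adjusted p = 3.92e-13). Outside EpiSCs, group means were at most 3.76 for *Fabp7*, 1.32 for *Pax2* and 1.41 for *En1*, which reached 30.1 ± 1.15 in EpiSCs. These genes passed the filter through EpiSCs, so their rise was built into it, and the count and median include them. In EpiLCs 8 rose and 12 fell (28.7% and 26.6% of all genes), with a median of -0.01, led by the POU factor *Pou3f1* (8.03, SE 0.254, adjusted p = 1.48e-14), from 2.45 ± 0.64 to 662 ± 106 normalized read counts per kb, by *Irx3* (5.75) and by the forebrain gene *Hesx1* (-5.35). In AFSCs 14 rose and 12 fell (29.7% and 30.8% of all genes), and in ASCs 13 rose and 9 fell (26.4% and 23.9%). In ESC-ASCs 6 rose and 12 fell against ESCs (30.6% and 29.6%), and 3 rose and 16 fell against ASCs (23.0% and 27.7%), with a median of -1.0 beside -0.05 over all genes. *Meis2*, a homeobox cofactor, led that comparison at -7.15 (SE 0.212, adjusted p = 2.45e-14), from 19.1 ± 1.42 normalized read counts per kb in ASCs to 0.12 ± 0.04 in ESC-ASCs.

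Around *Hes5*, 16 of 19 Notch pathway genes passed the filter. Between ESC-ASCs and ASCs, 5 rose and 3 fell, beside 23.0% and 27.7% of all genes. *Dll1*, a Notch ligand, rose by 4.14 (SE 0.192, adjusted p = 1.52e-11) from 8.97 ± 2.92 to 157 ± 14.7 normalized read counts per kb, its highest level in the 6 groups. *Dll4* rose by 2.35 (SE 0.586, adjusted p = 0.00322), whereas the receptor gene *Notch4* fell by 2.70 (SE 0.250, adjusted p = 7.31e-08). *Dll4* was low throughout, at 0.56 ± 0.29 in ASCs and 2.94 ± 0.67 in the deeper ESC-ASC libraries. Its passing of the filter leaned on these libraries, so its calls here and against ESCs add no support. Against ESCs, in which *Dll1* stood at 0.49 ± 0.38, 10 rose and 3 fell in ESC-ASCs, beside 30.6% and 29.6% of all genes, with a median log2 fold change of 1.06 beside 0.03 over all genes. In ASCs 9 rose and 2 fell (26.4% and 23.9% of all genes), with a median of 0.68. In AFSCs 8 rose and 3 fell (29.7% and 30.8%), with a median of 0.79, and in EpiLCs 7 rose and 6 fell (28.7% and 26.6%), with a median of 0.06. In EpiSCs 10 rose and 5 fell (29.2% and 32.0% of all genes), led by *Dll1* (5.83), *Dll3* (4.16) and *Hes6*, a bHLH factor that promotes neurogenesis (3.77, SE 0.201, adjusted p = 6.07e-12). *Hes5* itself was at or below 1 count in each sample of EpiSCs.

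All 4 BMP-induced Id genes passed the filter, and all 4 were higher in ASCs than in AFSCs, where 32.8% of all genes were, with a median log2 fold change of 2.89 beside 0.02 over all genes. *Id4* rose by 4.50 (SE 0.277, adjusted p = 8.65e-11), *Id1* by 3.37 (SE 0.282, adjusted p = 6.02e-09) and *Id3* by 2.40 (SE 0.202, adjusted p = 7.02e-09). In ESC-ASCs, which grew in the same medium, all 4 were lower than in ASCs, beside 27.7% of all genes, *Id3* by 4.21 (SE 0.218, adjusted p = 6.21e-11), from 502 ± 136 to 27.0 ± 2.64 normalized read counts per kb, *Id1* by 2.15 and *Id2* by 2.10. Against ESCs, ESC-ASCs were higher in *Id1* by 1.17 (SE 0.287, adjusted p = 0.00168), and *Id4* fell by 2.01 (SE 0.198, adjusted p = 6.81e-08) and *Id2* fell by 1.53 (SE 0.163, adjusted p = 1.94e-07), while *Id3* was at -0.29 without passing the test (adjusted p = 0.290). In ASCs *Id1* rose against ESCs by 3.33 (SE 0.286, adjusted p = 2.86e-08).

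**Figure D4:**
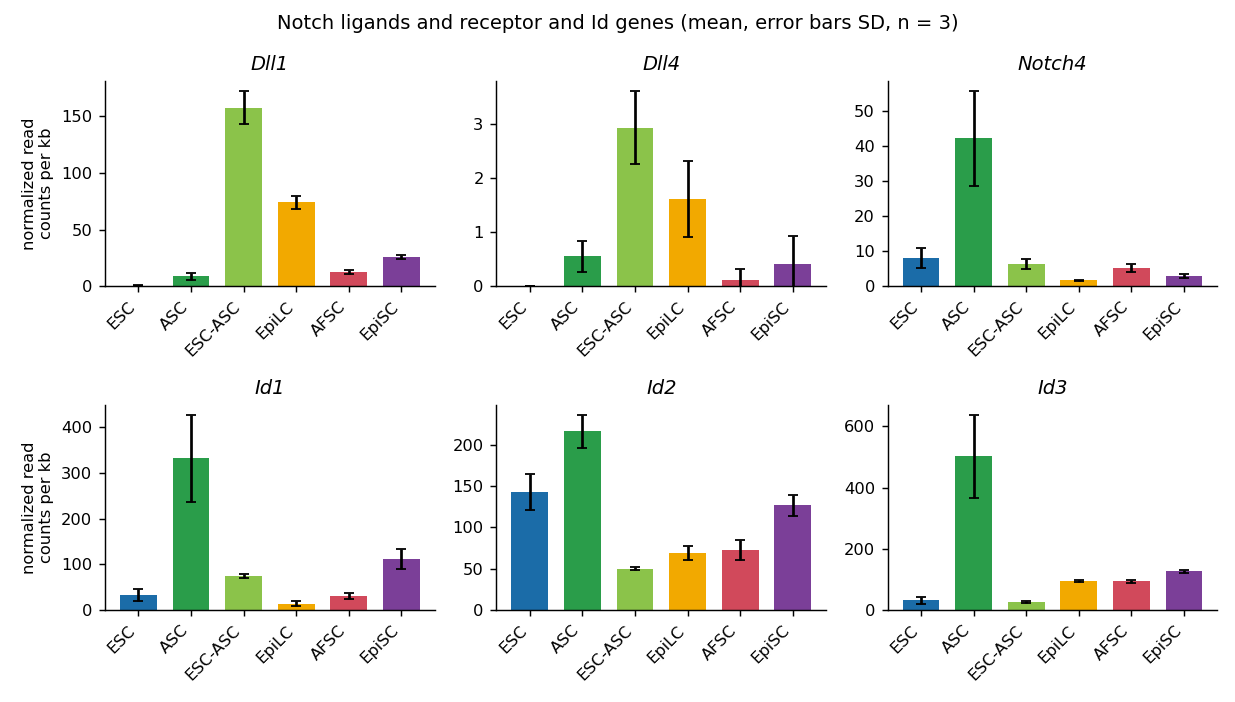
Normalized read counts per kb (vertical axes, linear from 0, a separate scale for each gene) of 2 Notch ligand genes, a Notch receptor gene and 3 Id genes, as bars for the mean of 3 samples and error bars for the SD in the 6 groups. *Dll1* and *Dll4* are highest in ESC-ASCs at 157 and 2.94, and *Notch4*, *Id1*, *Id2* and *Id3* are highest in ASCs at 42.2, 332, 217 and 502.

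The genes whose log levels were most like those of each tested gene over the 18 samples were ranked among 14859 genes. For *Sox4* they were *Vrtn* (r = 0.98), *Aff3* (0.98) and *Sort1* (0.98), and for *Sox11* *Chd7* (0.98), *Satb1* (0.98) and *Ube2e1* (0.97). *Vrtn* went from 0.10 ± 0.18 normalized read counts per kb in ESCs to 542 ± 17.6 in EpiSCs, and *Chd7*, a chromatin remodeller, from 8.79 ± 0.92 to 84.5 ± 10.8. For *Sox21* they were *Naa40* (0.96), *Idh1* (0.95) and *Plekhg3* (0.95), for *Nes* *Iigp1* (0.97), *Gskip* (0.96) and *Itga1* (0.96), and for *Sox12* *Gm15927* (0.95), *Nr2f6* (0.94) and *Thoc3* (0.93). *Iigp1* was low, at 11.5 ± 6.57 normalized read counts per kb in AFSCs, 3.87 ± 0.64 in EpiSCs and 0 in the other groups. For *Sox1* they were *Bnipl* (0.92), *Platr21* (0.86) and *Smpdl3b* (0.85). *Pax6* and *Zic1* had weaker matches, 0.84 for *Prrt2* and 0.76 for *Nnt* with *Pax6* and from 0.85 to 0.84 for *2700097O09Rik*, *Pms1* and *Iqcb1* with *Zic1*, of which a pseudocount of 1 kept 1 among the 3 most alike. These values describe 18 samples in 6 groups and carry no test.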

How the data were processed

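Reads of directional polyA libraries were mapped by the authors to GRCm38 with TopHat2, and what the authors deposited are unnormalized counts, 1 per gene and sample, from featureCounts 1.5.0-p1 on exons of Ensembl release 86. Per the file headers, both ends had to map, an overlap of 10 bp sufficed, fragments touching several genes or places were counted for each, and strand was not used. The deposited gene length column, a unit of its own in bp, was used to express levels per kb.

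Gene IDs were matched to symbols through GENCODE M21 (35514 of 35773). The 16901 genes that reached 10 counts in 3 or more samples were tested with edgeR 4.0.16 under R 4.3.3, using TMM factors, 1 quasi-likelihood fit over all 18 samples and Benjamini-Hochberg adjustment within each comparison. Genes with an adjusted p below 0.05 were called. The standard error was taken from the fold change and its F statistic. For normalized read counts per kb, size factors of DESeq2 1.42.0 and the gene length were divided out, with a pseudocount of 0.1 on log scales. *Hes5* was compared by exact permutation, and ratios of sparse counts carry exact 95% binomial intervals. Figures were drawn with matplotlib 3.10.9 in Python 3.11.15.

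All 9 genes are described. Genes named from the lists were mostly taken from the 3 with the largest called change in a comparison. Not all 3 are named in every comparison described, and some comparisons are given by counts only. For each tested gene, the 3 with the highest Pearson r are named, among genes with a mean of at least 10 normalized read counts per kb in 1 group. For *Pax6*, 1 of these 3 is not reported here. The genes and lists were chosen with earlier results of these data known. Alternatives were DESeq2, relative log expression factors, other filters, the 2 groups alone, a replicate block, thinned ESC-ASC counts and leaving out each replicate.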

Additional observations from a re-analysis of the deposited data

Results flagged for a closer look

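For 4 genes the change from AFSCs to ASCs differed from the change from ESCs to ESC-ASCs by a test of the difference itself, on the log2 scale and by edgeR's quasi-likelihood test. *Sox21* rose on the first route and fell on the second, a difference of 6.42 (SE 0.397, adjusted p = 8.31e-11). *Sox4* fell on the first route and rose on the second, a difference of -3.43 (SE 0.274, adjusted p = 3.22e-09), and so did *Sox11*, with -3.27 (SE 0.270, adjusted p = 5.03e-09). *Nes* fell on the first route and differed by 0.25 on the second without passing the test, a difference of -2.90 (SE 0.260, adjusted p = 1.53e-08). Over all genes tested, 58.5% differed between the routes.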

How the results depend on the processing

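Of 73 called differences of a gene between a pair of groups, 0 reversed under any alternative run and 15 lost the call under at least 1, and the cause was not tested. A setting in which a gene no longer passed the filter was not counted as a loss. *Zic1* passed only through the ESC-ASC samples. Its calls were therefore not tested without any 1 of these, without replicate 1 of every group, at 1 CPM or with thinned counts. The number of the 9 genes called changed in these settings. Without the filter on low counts, 5 were higher in ESC-ASCs than in ESCs. With only the 2 groups fitted, 2 were lower in ESC-ASCs than in ESCs, 1 lower in EpiSCs than in AFSCs and 2 lower in ESC-ASCs than in ASCs. Without replicate 1 of every group, an alternative chosen after seeing the data, these counts were 2, 1 and 2, and 2 were lower in EpiSCs than in EpiLCs. For genes higher in ESC-ASCs than in ASCs, a filter of 1 CPM left 1, as *Zic1* no longer passed it, and thinning ESC-ASC counts left 0, as *Zic1* no longer passed the filter and *Pax6* lost its call. Leaving out 1 replicate gave 4 to 5 genes higher in EpiLCs and 2 to 4 in ESC-ASCs than in ESCs, 3 to 4 lower in ASCs than in AFSCs, 2 to 3 higher in EpiSCs than in AFSCs, 1 to 2 higher in ASCs than in AFSCs, 0 to 2 lower in EpiSCs than in AFSCs, 1 to 2 lower in EpiSCs than in EpiLCs, and 0 to 2 higher and 1 to 2 lower in ESC-ASCs than in ASCs.

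Sign changes, in differences that were not called, were as follows on the log2 scale. *Nes*, EpiLC against ESC, was -0.00195 without the filter and -0.13 to 0.20 with 1 replicate left out. Without replicate 1 of every group, *Pax6* was -1.22 in AFSC against ESC, *Nes* 0.0747 in ESC-ASC against ASC and *Sox11* -0.22 in AFSC against EpiLC. With 1 replicate left out, *Pax6* ranged from -0.85 to 0.51 in AFSC against ESC, from -2.32 to 0.25 in ASC against ESC, from -2.35 to 0.55 in ASC against AFSC and from -0.0328 to 1.25 in EpiSC against AFSC, *Zic1* from -3.68 to 0.38 in AFSC against ESC and from -0.80 to 0.16 in ASC against EpiSC, *Nes* from -0.18 to 0.0145 in ESC-ASC against ASC, *Sox21* from -0.0832 to 0.36 in ASC against EpiSC, *Sox11* from -0.22 to 0.25 in AFSC against EpiLC and *Sox1* from -0.35 to 0.23 in ESC-ASC against AFSC. The difference between the routes into ABCL medium was 0.15 for *Sox1* with thinned counts and -0.28 to 0.29 with 1 replicate left out, -2.23 to 1.84 for *Zic1*, and -3.88 to -0.98 for *Pax6*, where it was called without ASC replicate 1.

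The replicate numbers of the labels did not pair the samples throughout: deviations of the 45 pairs with the same number had a mean correlation of 0.09 (-0.23 to 0.51), and 8 of 18 samples correlated best with their own number. Replicates 1 of ESCs, EpiLCs and AFSCs did deviate together, with correlations of 0.43 or more. A replicate block gave 2 genes lower in ESC-ASCs than in ASCs, as *Sox12* was then called (-0.49, adjusted p = 0.0165, edgeR), and it also called *Sox12* in AFSC against EpiLC (-0.52, adjusted p = 0.0109). Other scalings moved the median log2 fold change of all genes by at most 0.03. Depth limits *Pax6*, *Zic1* and *Hes5* to a few counts per sample. The p-values of the tests rest on the spread between replicate samples of cultured lines, estimated in 1 fit over all 18 samples.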
